A study of Homo sapiens with 22 samples.

Results

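The cells described here were the drug-susceptible WM989 melanoma cells that had grown for 5 days with a TGF-β receptor inhibitor (TGFBRi), set against drug-susceptible cells of the same experiment that received no treatment (Control). Cells were chosen by the submitters' own labels alone, as every cell of the Control and TGFBRi libraries whose state label was not primed, with no further filter. That gave 18698 cells of the 40021 in the treatment experiment, which itself is part of 54001 cells in 3 single-cell experiments. Control r1 held 4058 of them, Control r2 3527, TGFBRi r1 5111 and TGFBRi r2 6002. The state labels rest on the Louvain clusters of the study, of which clusters 4 and 10 were called primed and the others drug-susceptible. Since those clusters were drawn from the expression of the same cells, a cell that changed far enough under treatment would leave the set.

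WM989 is a human melanoma line that carries an activating BRAF mutation, and the cells came from A6-G3, a clone derived through repeated single-cell bottlenecks, so that 1 clone stands for the line. All groups carried a library of transcribed lentiviral lineage barcodes, and cells grown from the same starting population were divided over the treatments. TGFBRi was LY2109761 at 4 µM, PI3Ki was the PI3K inhibitor GDC-0941 at 2 µM and TGFB1 was the recombinant ligand at 5 ng/mL, each given for 5 days. Whether Control cells received the solvent of the inhibitor is not given in the sources used here. Each treatment had 2 replicates, named r1 and r2 in the cell labels, and the sample labels name the same pair Mix and Primed without saying which is which. The comparison asks how the drug-susceptible state changes when TGF-β receptor signalling is blocked, without ligand being added.

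TGF-β family ligands bind pairs of type I and type II receptor kinases at the cell surface. TGF-β and activin receptors phosphorylate SMAD2 and SMAD3, and BMP receptors phosphorylate SMAD1, SMAD5 and SMAD9; both kinds of complex join SMAD4 and enter the nucleus. Among the genes they switch on are inhibitors of the same pathway (SMAD6, SMAD7, SKIL, PMEPA1), which closes a negative feedback loop, and the inhibitors of DNA binding (ID1, ID2, ID3), which hold basic helix-loop-helix factors away from DNA. In melanoma, TGF-β is known for raising matrix and mesenchymal genes and for lowering the pigment programme. The primed state of WM989 cells is marked by EGFR, NGFR and AXL, each in some of the cells. The paper found that NT5E marks the whole primed cluster.

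The drug-susceptible cells of the 4 libraries carried 76751195 (Control r1), 77745874 (Control r2), 81006526 (TGFBRi r1) and 84369288 (TGFBRi r2) unique molecular identifiers (UMIs, counted transcripts). Cells of the TGFBRi libraries were shallower, with a median of 15007 and 13128 UMIs per cell, against 18526 and 21929 in Control r1 and r2. The median number of genes per cell moved with it, at 4334 and 4814 in Control and 3867 and 3621 in TGFBRi. The median mitochondrial share was 10.6% to 11.05% in all 4. The part of cell depth was checked for genes by keeping cells of 12000 to 20000 UMIs, an alternative chosen after seeing the data, and for shares by keeping cells of at least 10000 UMIs. The first window kept 2153 and 1102 cells of Control r1 and r2 and 3188 and 3038 of TGFBRi r1 and r2. The mix of clusters was not matched within it. Of 18668 cell barcodes in these libraries, 30 occurred in more than 1 library. The melanocyte genes SOX10, MITF, PMEL, MLANA, TYR and DCT were all present, and with TYRP1, which stayed below 2.4 CPM (counts scaled to a common library total), they summed to 4620 and 4630 CPM in Control and 4288 and 4349 CPM in TGFBRi. Of 18 markers of blood, endothelial, epithelial, muscle, liver and fibroblast cells, 5 were at 0 in all 4 libraries (CD3E, KRT5, KRT14, KRT1 and HBB). Without CD68, which melanoma cells also express, the markers summed to 31.4 to 31.7 CPM in Control and 27.8 to 30.8 CPM in TGFBRi, and LUM made up most of it at 25.0 to 29.4 CPM.

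To compare treatments, the UMIs of all drug-susceptible cells of a library were summed, and edgeR's quasi-likelihood test was fitted over the 8 libraries of the experiment with treatment and replicate as terms, so that a change was read within r1 and within r2. Gene levels are given as CPM of the summed library after scaling, except for the marker checks above and levels within clusters or phases, which use unscaled totals. With the receptor inhibitor, 503 of 17914 genes tested passed an adjusted p of 0.05 (2.81%), of which 218 rose (1.22%) and 285 fell (1.59%). Counts of called members in the gene lists below are to be read beside these shares. All 503 changed the same way in both replicates. In 479 of them the Control and TGFBRi libraries did not overlap, a property shared by 36.5% of all genes tested. The changes were small, with a median log2 fold change of 0.40 among genes that rose and −0.42 among those that fell. Only 40 genes changed by more than 1 on the log2 scale, 15 up and 25 down, and 2 of these had a mean of at least 10 CPM, ID3 and COL9A3. Against the same Control libraries, 14.9% of genes passed with TGFB1 (1533 higher and 1132 lower) and 12.1% with PI3Ki (1056 higher and 1114 lower). The primed label, which left cells out, covered 29.1% and 31.3% of cells in TGFB1 r1 and r2, against 2.26% and 4.47% in Control. The TGFB1 values given below therefore describe only the cells that kept the drug-susceptible label.

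The number of genes that passed depended on the libraries and on the replicate term more than the direction did. Without the replicate term 15 genes rose and 32 fell, all among the 503. Without Control r1, 131 rose and 217 fell, without Control r2, 81 rose and 125 fell, and without TGFBRi r1, 614 rose and 633 fell. Such fits leave 1 library in the group, which is then assumed to vary like the libraries of the other treatments. DESeq2 called 129 higher and 197 lower, and 78 of the 94 called genes named in this text were among its calls. In cells of matched depth 505 rose and 299 fell, so that the share of risers went from 43.3% to 62.8%. Of the 503 genes called in all cells, 281 passed again (55.9%), and these were 34.95% of the 804 calls at matched depth. Of the 499 tested there, 490 kept their direction, in cells that are part of the same libraries. Of the 94 named genes, 21 passed in each of the 17 alternative analyses: ID1, ID2, ID3, SKIL, PMEPA1, BMPR2, COL9A3, BAALC, S100A4, FRZB, IGFBP2, RNF157, TRIB3, LINC01711, LINC01918, FAM210B, SLC7A5, CEACAM1, PRDX1, SLC2A1 and PIK3R3. For the others, a library whose removal ended the call, and a call lost at matched depth, are named with the gene, and 68 of the 94 did not pass without the replicate term.

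The inhibitor's own targets changed little at the RNA level. TGFBR1, the type I TGF-β receptor, read 22.9 and 25.4 CPM in Control and 23.0 and 22.9 CPM in TGFBRi, a log2 fold change of −0.07 ± 0.07 (SE, 95% interval −0.21 to 0.07, adjusted p = 0.722). TGFBR2, the type II receptor, read 5.79 and 5.75 CPM in Control and 5.17 and 5.15 CPM in TGFBRi (−0.16 ± 0.10, interval −0.36 to 0.04, adjusted p = 0.506). RNA levels do not report kinase activity, so that these values do not check the inhibition itself. Among all 13 receptors of the family, 1 rose and 1 fell. TGFBR3 (betaglycan, a co-receptor that presents ligand) went from 8.45 and 8.86 CPM to 12.2 and 12.2 CPM, a rise of 0.49 ± 0.09 (adjusted p = 0.00225). BMPR2, the type II receptor for BMP ligands, read 36.4 and 35.9 CPM in Control and 25.1 and 24.9 CPM in TGFBRi, a log2 fold change of −0.53 ± 0.07 (adjusted p = 1.56e-05), with both TGFBRi libraries well below both Control libraries. With added TGFB1 these genes stood the other way, TGFBR3 at −0.95 and BMPR2 at 0.50, each read against the same Control libraries.

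None of the 8 ligand genes tested passed in edgeR, DESeq2 called 0 as well, and 2 had an unadjusted p under 0.05. TGFB1 itself read 16.4 and 13.9 CPM in Control and 14.9 and 15.4 CPM in TGFBRi, so that its libraries overlapped. Of 14 genes that store or antagonize the ligand outside the cell, ITGB8 rose, from 12.8 and 14.6 CPM to 17.9 and 19.2 CPM (0.44 ± 0.07, adjusted p = 0.000726). Its product forms with integrin αV a receptor that releases TGF-β from its latent form. ITGB8 stood at −0.78 with TGFB1.

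Of 20 SMADs and SMAD regulators, 5 fell and 1 rose, with a median log2 fold change of −0.08 against 0.0037 over all genes tested. PMEPA1, a membrane protein that holds SMAD2 and SMAD3 away from the receptor, read 3.57 and 4.32 CPM in Control and 0.728 and 0.948 CPM in TGFBRi. Its log2 fold change was −2.23 ± 0.20 (adjusted p = 2.81e-07). SKIL, a co-repressor of SMAD complexes, read 4.01 and 5.22 CPM in Control and 0.9997 and 1.66 CPM in TGFBRi, a log2 fold change of −1.79 ± 0.14 (adjusted p = 1.57e-08). For both genes the highest TGFBRi library lay below the lowest Control library by more than the spread within either group. With TGFB1 the same genes stood at 4.93 and 2.79, the opposite direction.

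TGIF1, a transcriptional co-repressor of SMAD2, read 5.32 and 6.36 CPM in Control and 3.83 and 4.33 CPM in TGFBRi, a log2 fold change of −0.52 ± 0.11 (adjusted p = 0.00635, and 0.0792 without Control r2). SMAD6, the inhibitory SMAD of the BMP branch, was low everywhere, at 0.545 and 0.686 CPM in Control and 0.247 and 0.234 CPM in TGFBRi (−1.35 ± 0.27, adjusted p = 0.00397, and 0.123 without Control r2). SMAD7, the general inhibitory SMAD, barely passed, at 6.25 and 6.90 CPM in Control and 4.58 and 5.81 CPM in TGFBRi (−0.34 ± 0.09, adjusted p = 0.0449). Its call was lost without Control r1 (0.226), Control r2 (0.236) or TGFBRi r1 (0.174), at matched depth (0.0903) and in DESeq2 (0.135). SMAD3 was the regulator that rose, from 16.0 and 14.7 CPM to 21.1 and 18.4 CPM (0.36 ± 0.07, adjusted p = 0.00324, and 0.0731 without Control r1 and 0.0567 without Control r2). SMAD2 and SMAD4 did not pass, at 0.02 and −0.05, nor did SMAD5, at 57.2 and 60.5 CPM in Control and 58.0 and 59.6 CPM in TGFBRi. SMAD1 was detected at 0.111 to 0.208 CPM only.

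**Figure D1:**
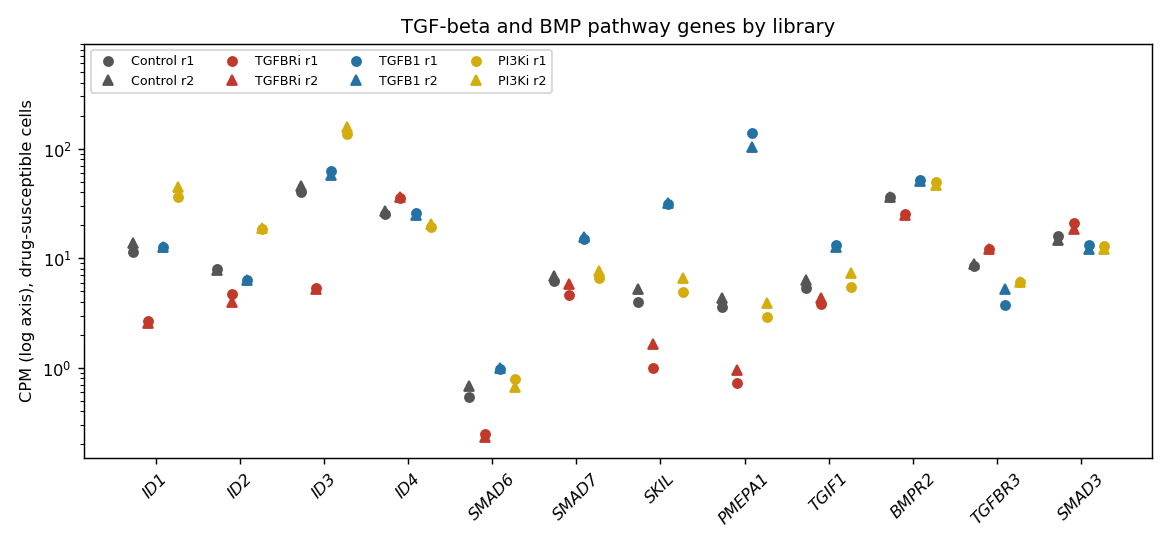
Levels of 12 TGF-β and BMP pathway genes in drug-susceptible cells, as CPM on a log axis, 1 point per library (circles r1, triangles r2; grey Control, red TGFBRi, blue TGFB1, yellow PI3Ki). ID1, ID2, ID3, SKIL and PMEPA1 lie lower in both TGFBRi libraries than in both Control libraries, and ID4, TGFBR3 and SMAD3 lie higher.

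Among 31 tested target genes of SMAD2 and SMAD3, 5 fell and 1 rose (median −0.09). The 5 were SMAD7, SKIL and PMEPA1, described above, and 2 transcription factors. BHLHE40, a clock-related repressor, read 32.4 and 31.2 CPM in Control and 25.5 and 24.3 CPM in TGFBRi (−0.35 ± 0.07, adjusted p = 0.00431, and 0.0583 without Control r1 and 0.0581 at matched depth). MYC read 174 and 165 CPM in Control and 144 and 129 CPM in TGFBRi (−0.32 ± 0.07, adjusted p = 0.00996). With TGFB1, against the same Control libraries, MYC was lower as well (−0.66, adjusted p = 1.84e-07), and BHLHE40 stood at 0.02. The MYC call was lost without Control r1 (0.158), Control r2 (0.114) or TGFBRi r2 (0.0819). LBH, a transcriptional cofactor, was the gene that rose, from 9.35 and 7.41 CPM to 11.4 and 11.7 CPM (0.47 ± 0.09, adjusted p = 0.00347, and 0.126 without Control r2 and 0.0928 without TGFBRi r2).

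The largest change among genes of at least 10 CPM was in ID3, and the ID genes are grouped here as BMP and SMAD1/5 targets. Of 12 genes in that list, 4 fell and 1 rose (median −0.29). ID3 read 40.0 and 46.0 CPM in Control and 5.36 and 5.27 CPM in TGFBRi, a log2 fold change of −3.02 ± 0.09 (adjusted p = 1.69e-16), which is 8.09-fold. ID1 read 11.5 and 13.7 CPM in Control and 2.67 and 2.56 CPM in TGFBRi, a log2 fold change of −2.27 ± 0.10 (adjusted p = 2.62e-13). For both genes the TGFBRi libraries read nearly the same and lay far below Control. ID2 fell less, by 0.86 ± 0.09 (adjusted p = 2.58e-06), from 8.03 and 7.81 CPM to 4.75 and 3.98 CPM. ID4, which is known to act against the other ID proteins, moved the opposite way, from 25.5 and 27 CPM to 35.4 and 35.9 CPM, a rise of 0.44 ± 0.07 (adjusted p = 0.000232) that was lost in G2M cells alone.

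With TGFB1, against the same Control libraries, ID3 rose (0.48, adjusted p = 8.75e-05) and ID2 fell (−0.32, adjusted p = 0.0164), while ID1 (0.01) and ID4 (−0.05) did not pass. With PI3Ki the log2 fold changes were 1.76 for ID3, 1.69 for ID1, 1.25 for ID2 and −0.40 for ID4, so that all 4 stood opposite to the receptor inhibitor. ID3 reached 135 and 157 CPM and ID1 36.5 and 44.6 CPM in the PI3Ki libraries. The 2 inhibitors share no library and can be compared directly, and in that test the log2 difference TGFBRi minus PI3Ki was −4.78 for ID3, −3.95 for ID1, −2.11 for ID2 and 0.84 for ID4 (adjusted p = 9.57e-21, 6.00e-19, 2.79e-14 and 5.15e-09). Over all genes, the direct test called 17%, and 370 of the 503 genes called for TGFBRi were among them. Both tests use the same TGFBRi libraries, so that this count is no separate support.

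The 300-base promoter windows of the 4 ID genes are shown because this family holds the largest change among genes of at least 10 CPM and because ID4 moved against the rest. They are RefSeq sequences on GRCh38.p14, read 5′ to 3′ on the strand of the gene, from 250 bases before the start to 50 bases after it, and capitals mark each AGAC core on either strand (AGAC or GTCT), the shortest sequence a SMAD3 or SMAD4 complex is known to contact.
ID1: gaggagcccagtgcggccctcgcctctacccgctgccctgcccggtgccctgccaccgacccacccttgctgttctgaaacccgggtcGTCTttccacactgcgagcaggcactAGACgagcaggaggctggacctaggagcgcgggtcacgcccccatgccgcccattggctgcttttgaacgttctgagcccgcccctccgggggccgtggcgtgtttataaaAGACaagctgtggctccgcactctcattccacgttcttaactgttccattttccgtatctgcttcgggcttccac
ID2: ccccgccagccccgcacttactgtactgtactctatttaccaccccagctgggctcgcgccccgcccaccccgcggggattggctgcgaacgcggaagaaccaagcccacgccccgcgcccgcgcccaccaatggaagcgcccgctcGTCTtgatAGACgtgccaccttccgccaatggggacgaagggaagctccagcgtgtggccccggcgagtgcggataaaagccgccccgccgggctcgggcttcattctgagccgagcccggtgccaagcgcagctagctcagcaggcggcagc
ID3: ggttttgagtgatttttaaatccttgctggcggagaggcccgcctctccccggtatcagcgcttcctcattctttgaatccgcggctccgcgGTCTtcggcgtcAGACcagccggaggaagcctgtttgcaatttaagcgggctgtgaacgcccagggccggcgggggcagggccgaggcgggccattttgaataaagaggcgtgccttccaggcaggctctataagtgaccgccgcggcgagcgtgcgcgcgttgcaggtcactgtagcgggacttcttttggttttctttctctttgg
ID4: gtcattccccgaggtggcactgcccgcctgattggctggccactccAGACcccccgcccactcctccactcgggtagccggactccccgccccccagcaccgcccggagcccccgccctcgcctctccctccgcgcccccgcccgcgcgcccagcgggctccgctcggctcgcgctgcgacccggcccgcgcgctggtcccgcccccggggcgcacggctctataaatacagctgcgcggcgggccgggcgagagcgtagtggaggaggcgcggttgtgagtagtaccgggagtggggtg
The ID3 window (chr1:23559452-23559751, minus strand) holds 2 AGAC cores, that of ID2 (chr2:8681806-8682105, plus strand) 2, that of ID4 (chr6:19837120-19837419, plus strand) 1 and that of ID1 (chr20:31605039-31605338, plus strand) 3. An AGAC core occurs in 84.0% of the 35116 RefSeq promoter windows of this length, so that its presence separates none of them from other genes. The longer SMAD motif CAGACA (both strands; it contains AGAC) was in none of the 4 windows and in 16.9% of all. Over all called genes with a window, CAGACA was found in 14.98% of windows of genes that rose and 17.1% of those that fell, against 14.0% of windows of all genes tested. In the assay for open chromatin of untreated sorted cells labelled Mix, each of the 4 windows overlapped a peak in all 3 libraries. For this assay the paper's methods list a sort negative for both EGFR and NGFR and name no mixed sort. This label is separate from the Mix label of the treatment replicates. The highest fold enrichment of a peak over the window was 50.4 to 67.8 for ID3, 79.9 to 91.8 for ID1, 69.8 to 77.1 for ID2 and 49.4 to 61.7 for ID4. A peak in all 3 libraries was found at 71.3% of windows of genes that rose, 71.4% of those that fell and 76.6% of those of all genes tested. No chromatin data with the receptor inhibitor were analysed here.

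The fall of ID3 and ID1 was seen in each part of the population that could be measured. In the 6 clusters with at least 50 drug-susceptible cells in every library, the mean log2 ratio ranged from −3.48 to −2.21 for ID3 and from −2.50 to −1.53 for ID1. By cell cycle phase it ranged from −3.35 to −2.82 for ID3 and from −3.08 to −1.72 for ID1. ID1 was higher in G2M cells (15.5 and 16.6 CPM in Control) than in G1 cells (7.86 and 12.1 CPM), and it was lower with TGFBRi in both. Of the 286 called genes with a mean of at least 10 CPM, 286 kept their direction in both replicates in cluster 0, the largest, and 253 in cluster 7, the fewest. In G1, S and G2M cells, 281, 284 and 284 did. These subsets hold the same cells as the sums and are not further replicates.

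**Figure D2:**
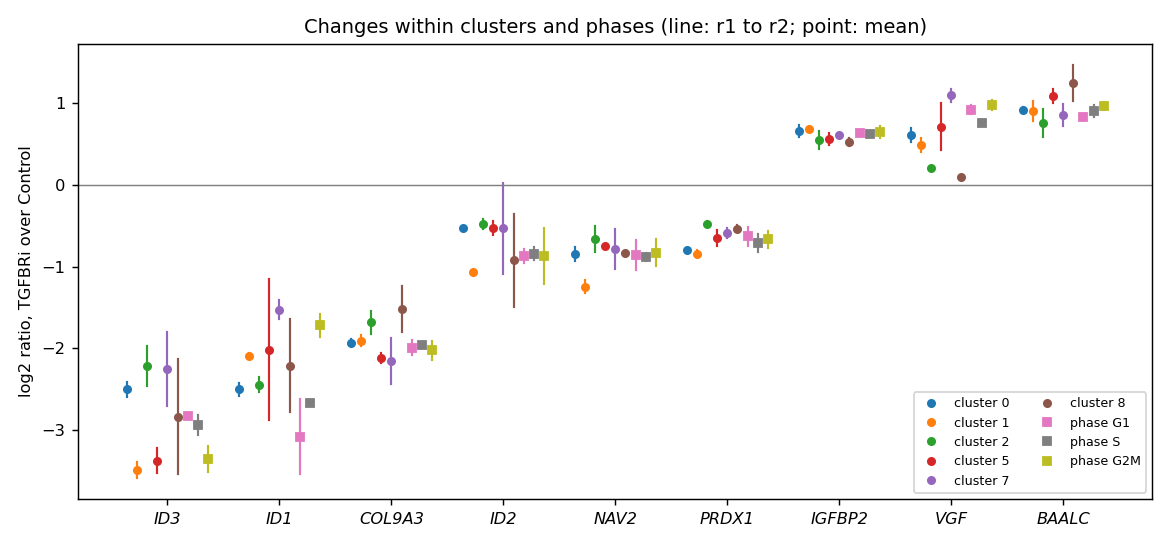
Log2 ratio of TGFBRi over Control for 9 genes within each of 6 Louvain clusters (circles) and 3 cell cycle phases (squares), with a line from the r1 to the r2 ratio and the point at their mean. ID3, ID1 and COL9A3 lie below 0 in all 9 subsets, and VGF is close to 0 in clusters 2 and 8.

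COL9A3, which encodes a chain of the cartilage-type collagen IX, had the next largest change after ID3 among genes of at least 10 CPM. It read 71.3 and 64.3 CPM in Control and 19.0 and 15.6 CPM in TGFBRi, a log2 fold change of −1.98 ± 0.09 (adjusted p = 2.44e-13), and the ranges were far apart. It stood at 1.17 with TGFB1 and at 0.96 with PI3Ki, and the log2 difference TGFBRi minus PI3Ki was −2.93 (adjusted p = 4.01e-17). In clusters its mean log2 ratio ranged from −2.15 to −1.52. Of 23 collagen and matrix genes tested, 4 fell and 2 rose (median −0.08). COL6A3 was near the limit of detection, at 0.844 and 0.624 CPM in Control and 0.247 and 0.141 CPM in TGFBRi (−1.92 ± 0.26, adjusted p = 5.36e-05, and 0.0551 at matched depth). PLOD2, which hydroxylates collagen lysines, fell by 0.33 ± 0.07 (adjusted p = 0.0105, and 0.477 without Control r2 and 0.0559 without TGFBRi r2), from 23.5 and 28.8 CPM to 20.1 and 21.5 CPM. COL18A1 fell with an adjusted p of 0.0374 that was lost without Control r1 (0.0625), Control r2 (0.161) or TGFBRi r1 (0.27) and at matched depth (0.171).

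BGN (biglycan, a small matrix proteoglycan that binds TGF-β) rose, from 0.870 and 0.674 CPM to 2.20 and 1.78 CPM (1.36 ± 0.16, adjusted p = 1.11e-05, and 0.0809 at matched depth). LAMA4, a laminin chain, rose by 0.27 with an adjusted p of 0.0361, which was 0.215, 0.361 and 0.258 without Control r1, Control r2 and TGFBRi r2 and 0.0632 at matched depth. Fibronectin (FN1), a matrix gene that is also in the intermediate-state list, did not pass in all cells, and its value changed with the cells and libraries used. It read 43.6 and 50.5 CPM in Control and 31.3 and 44.3 CPM in TGFBRi, overlapping ranges, with a log2 fold change of −0.32 ± 0.11 (adjusted p = 0.127). In cells of matched depth the value was −1.11 (adjusted p = 0.00011), and without TGFBRi r2 it was −0.58 (adjusted p = 0.000292). Within clusters its direction was mixed: the mean log2 ratio ranged from −0.74 to 0.42 and was below 0 in 2 of 6. FN1 leads cluster 3, which is not among the 6 and whose share was lower with TGFBRi. Median depth in cluster 3 was 15506 and 16443 UMIs in Control, within the matched window, and 10021 and 10387 UMIs in TGFBRi, below it. Whether the window changed the share of cluster 3 was not tested. With TGFB1, FN1 stood at 3.81, and BGN, which rose here, at 2.16.

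Of the 12 largest rises among genes of at least 10 CPM, all were smaller than 1 on the log2 scale. BAALC, a membrane-associated protein first described in leukaemia, rose most, from 12.2 and 10.4 CPM to 22.3 and 20.3 CPM (0.92 ± 0.08, adjusted p = 2.81e-07), and by 0.75 to 1.24 across clusters. VGF, a secreted neuropeptide precursor and primed-state marker, read 781 and 1301 CPM in Control and 1449.9 and 2350.1 CPM in TGFBRi, a rise of 0.87 ± 0.12 (adjusted p = 0.000104). Both TGFBRi libraries lay above both Control libraries, but the replicates of VGF differed by nearly as much as the treatments, and without the replicate term the adjusted p was 0.528. Within clusters 2 and 8, whose leading gene is VGF, its mean log2 ratio was 0.20 and 0.10, against 0.49 to 1.09 in the other 4 clusters. S100A4, a calcium-binding protein linked to motility, rose from 8.69 and 8.35 CPM to 14.1 and 14.6 CPM (0.75 ± 0.08, adjusted p = 1.35e-06).

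FRZB, a secreted antagonist of Wnt ligands, rose by 0.72 ± 0.09, from 9.01 and 10.6 CPM to 16.1 and 16.1 CPM. IGFBP2, which binds insulin-like growth factors, rose by 0.64 ± 0.07, from 182 and 154 CPM to 284 and 241 CPM. Both TGFBRi libraries of these genes lay above both Control libraries, and the genes passed in all 17 alternative analyses. RNF157, a ubiquitin ligase, rose by 0.55, and ATP9A, a lipid flippase, by 0.56. SOD3, the extracellular superoxide dismutase, rose by 0.49 (adjusted p = 0.000334, and 0.0518 without Control r2). TGFBR3, given above, was also among the 12, and NUPR1, SLC7A11 and TRIB3 are described with the stress genes. Of these 12 genes, S100A4 and FRZB differed most between the inhibitors: they stood at −1.21 and −1.37 with PI3Ki, and the log2 difference TGFBRi minus PI3Ki was 1.96 and 2.09. With TGFB1, against the same Control libraries, S100A4 (0.61), FRZB (0.49) and SOD3 (0.30) were higher as well. NUPR1 (0.05) and BAALC (−0.09) stood near 0 there, and IGFBP2 (−0.31), RNF157 (−0.27), ATP9A (−0.42), TRIB3 (−0.50), VGF (−0.72) and SLC7A11 (−1.99) stood lower.

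**Figure D3:**
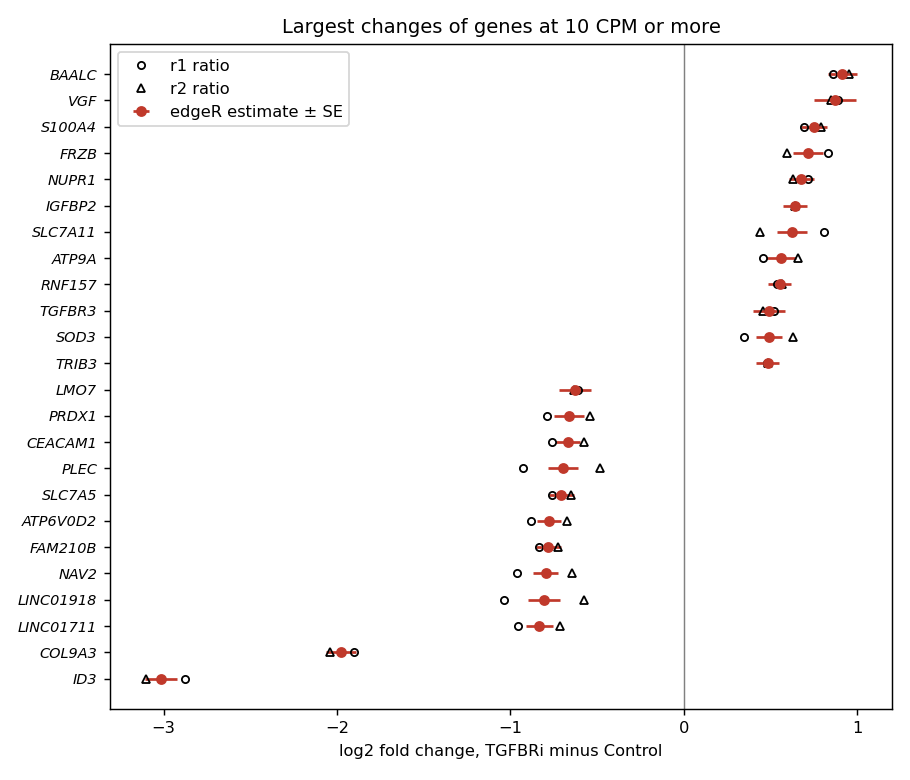
The 12 largest rises and 12 largest falls with TGFBRi among genes with a mean of at least 10 CPM, as log2 fold change over Control with its SE (red) and the ratios of r1 (open circles) and r2 (open triangles). ID3 and COL9A3 stand apart at −3.02 and −1.98, and the other falls and all rises in the plot were smaller than 1.

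Of the 12 largest falls among genes of at least 10 CPM, ID3 and COL9A3 are given above, and the others were smaller than 1 on the log2 scale. The long non-coding RNAs LINC01711 and LINC01918 fell by 0.83 ± 0.08 and 0.81 ± 0.09, the first from 18.0 and 18.6 CPM to 9.22 and 11.3 CPM. NAV2, a neuron navigator protein, fell by 0.80 ± 0.07 (adjusted p = 2.81e-07), from 41.0 and 49.2 CPM to 21.0 and 31.5 CPM. FAM210B, a mitochondrial protein, fell by 0.78 ± 0.07, from 90.3 and 87.2 CPM to 50.6 and 52.7 CPM. In each of these 4 genes both TGFBRi libraries lay below both Control libraries.

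ATP6V0D2, a subunit of the proton pump of acid compartments, fell by 0.78 ± 0.07, from 69.6 and 82.9 CPM to 37.8 and 51.9 CPM. SLC7A5, the large neutral amino acid transporter, fell by 0.71 ± 0.07, from 34.1 and 35.6 CPM to 20.1 and 22.7 CPM. The cytolinker PLEC fell by 0.70 and the adhesion molecule CEACAM1 by 0.67. PRDX1, a peroxiredoxin that removes peroxides, fell by 0.66 ± 0.09 (adjusted p = 3.64e-05), from 6222 and 5411.5 CPM to 3606 and 3727 CPM. PRDX1 overlaps MMACHC in the genome, and reads of overlapping genes may be split between them. LMO7, an actin-binding junction protein, fell by 0.63 (adjusted p = 0.000157). With TGFB1, against the same Control libraries, LMO7 stood at 1.54, FAM210B at 1.25, NAV2 at 1.13, SLC7A5 at 1.10, LINC01711 at 0.46 and PLEC at 0.43. PRDX1 (0.13), LINC01918 (0.08) and ATP6V0D2 (0.02) stood near 0 there, and CEACAM1 was lower with TGFB1 as well (−0.37).

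Genes of the ATF4 stress response, which cells use when amino acids run short or proteins misfold, had the highest share of risers among the 34 lists. Of 17 tested, 8 rose and none fell, with a median log2 fold change of 0.25. NUPR1, a stress-induced chromatin protein, read 30.5 and 23.4 CPM in Control and 50.4 and 36.3 CPM in TGFBRi (0.68 ± 0.07, adjusted p = 2.58e-06). SLC7A11, the cystine importer, read 9.40 and 11.9 CPM in Control and 16.6 and 16.1 CPM in TGFBRi (0.63 ± 0.09, adjusted p = 8.26e-05). TRIB3, which restrains the response, read 25.7 and 24.8 CPM in Control and 35.9 and 34.8 CPM in TGFBRi (0.49 ± 0.07, adjusted p = 8.47e-05). The ranges of these genes did not overlap. ATF3, a stress factor of the AP-1 family, was low, at 1.68 and 1.80 CPM in Control and 2.75 and 2.89 CPM in TGFBRi (0.70 ± 0.13, adjusted p = 0.00172).

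The rest of the ATF4 list moved less and was less secure. PSAT1, a serine synthesis enzyme, rose by 0.31 (adjusted p = 0.0108, lost without Control r1 at 0.163, Control r2 at 0.114 and TGFBRi r1 at 0.0552). ATF4 itself rose by 0.25 (adjusted p = 0.0475, lost without Control r1 at 0.271, Control r2 at 0.498 and TGFBRi r1 at 0.171). DDIT3 (CHOP) rose by 0.30 (adjusted p = 0.013, lost without Control r2 at 0.534 and TGFBRi r2 at 0.0905), and SESN2 by 0.45 (adjusted p = 0.00306, 0.0523 without Control r2). In cells of matched depth 4 of the list passed, TRIB3, NUPR1, SLC7A11 and PSAT1. There ATF3 had an adjusted p of 0.218, ATF4 0.0963 and SESN2 0.0582, and DDIT3 turned to −0.048 (adjusted p = 0.819). SLC7A5, an amino acid transporter that is also known as an ATF4 target, fell, as given above.

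Hypoxia and glycolysis genes moved the other way: 8 of 21 tested fell and none rose, with a median of −0.19, and 8 fell at matched depth too. SLC2A1, the glucose transporter GLUT1, read 22.3 and 22.6 CPM in Control and 14.4 and 17.2 CPM in TGFBRi (−0.51 ± 0.07, adjusted p = 0.000133). BNIP3, a mitophagy receptor induced by hypoxia, read 200 and 232 CPM in Control and 151 and 171 CPM in TGFBRi (−0.42 ± 0.06, adjusted p = 0.000275). PGK1, a glycolytic kinase, read 532 and 579 CPM in Control and 408 and 462 CPM in TGFBRi (−0.35 ± 0.07, adjusted p = 0.00397). Each of these had both TGFBRi libraries below both Control libraries. PDK1, P4HA1, BNIP3L, ADM and LDHA fell by 0.36, 0.34, 0.32, 0.34 and 0.28, and the ranges of ADM overlapped.

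Leaving out 1 library ended several of these calls. Without Control r1 the adjusted p was 0.128 for PGK1, 0.174 for ADM, 0.0947 for P4HA1, 0.0718 for BNIP3L and 0.165 for LDHA. Without Control r2 it was 0.0606 for PDK1, 0.0787 for PGK1, 0.106 for BNIP3L and 0.6 for LDHA, and without TGFBRi r2 it was 0.189 for LDHA. Against the same Control libraries, SLC2A1 stood at −0.73, BNIP3 at −1.43 and LDHA at −0.87 with PI3Ki. With TGFB1 as well, BNIP3 (−0.42), PDK1 (−0.33), SLC2A1 (−0.32) and LDHA (−0.27) were lower, with 7 of the 21 list members lower and 3 higher, ADM (0.51) among the latter. In the direct test BNIP3 and LDHA lay above their PI3Ki level by 1.005 and 0.59.

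The genes that define the cell state itself are counted beside all genes tested, of which 1.22% rose and 1.59% fell. Of 23 primed-state markers, VGF was the one that rose and none fell (median 0.07). EGFR read 1.23 and 1.45 CPM in Control and 1.25 and 1.41 CPM in TGFBRi (−0.02, 95% interval −0.33 to 0.30). AXL (0.208 and 0.586 CPM against 0.358 and 0.492 CPM) and NGFR (0.403 and 2.68 CPM against 0.629 and 2.68 CPM) overlapped as well, and NGFR followed the replicate and not the treatment. NT5E (CD73) and SERPINE2 did not pass in all cells (−0.26 and −0.29, adjusted p = 0.0602 and 0.178) and passed at matched depth (−0.35 and −0.58, adjusted p = 0.0156 and 0.0107). SERPINE2, like FN1, is among the leading genes of cluster 3. Within the 6 clusters measured, its mean log2 ratio ranged from −0.74 to −0.05. In fits that leave 1 library in a group, the adjusted p was 0.0246 for NT5E without TGFBRi r1 and 0.0483 for SERPINE2 without Control r1.

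Of 7 genes tied to the intermediate state, 2 rose. NFATC2, a transcription factor downstream of calcineurin, read 20.8 and 22.3 CPM in Control and 30.0 and 29.7 CPM in TGFBRi (0.47 ± 0.07, adjusted p = 0.000232), but in cells of matched depth it stood at 0.15 (adjusted p = 0.474). SFRP1, a secreted Wnt antagonist, rose by 0.40 (adjusted p = 0.00489, and 0.281 without Control r2), with overlapping ranges. Of 29 melanocyte identity and pigment genes, 2 rose and 2 fell (median −0.03). ABCB5, a transporter of melanoma cells, rose by 0.83 ± 0.11 (adjusted p = 2.44e-05), from 3.05 and 3.76 CPM to 5.34 and 6.79 CPM. ERBB3, the neuregulin receptor, fell by 0.41 ± 0.07 (adjusted p = 0.000582, and 0.0557 without Control r2), from 60.8 and 61.3 CPM to 48.7 and 43.3 CPM. SOX10 (0.03, adjusted p = 0.899) and MITF (−0.10, adjusted p = 0.586), the lineage factors, did not pass.

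TFAP2A, a melanocyte transcription factor, fell by 0.32 (adjusted p = 0.00706, and 0.173 without Control r2 and 0.0875 without TGFBRi r2). APOE rose by 0.27 (adjusted p = 0.0326, and 0.155, 0.596 and 0.244 without Control r1, Control r2 and TGFBRi r2), with overlapping ranges. In the first experiment of the series, where the same line was sorted without treatment, primed cells (1704 and 1139) can be set beside drug-susceptible cells (5886 and 3802) as a description. The paired counts are of cells labelled r1 and r2, which belong to 1 sample of the series and are not taken as replicate samples here. Genes were kept if they reached 10 CPM in any primed or drug-susceptible sum of that experiment. Of these, 90 of 149 that rose with TGFBRi were higher in primed cells in both r1 and r2 there (60.4%). So were 72 of 201 that fell (35.8%) and 3953 of 8933 of all genes (44.3%). The median log2 ratio of primed over drug-susceptible cells was 0.42, −0.23 and −0.02 in these groups.

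**Figure D4:**
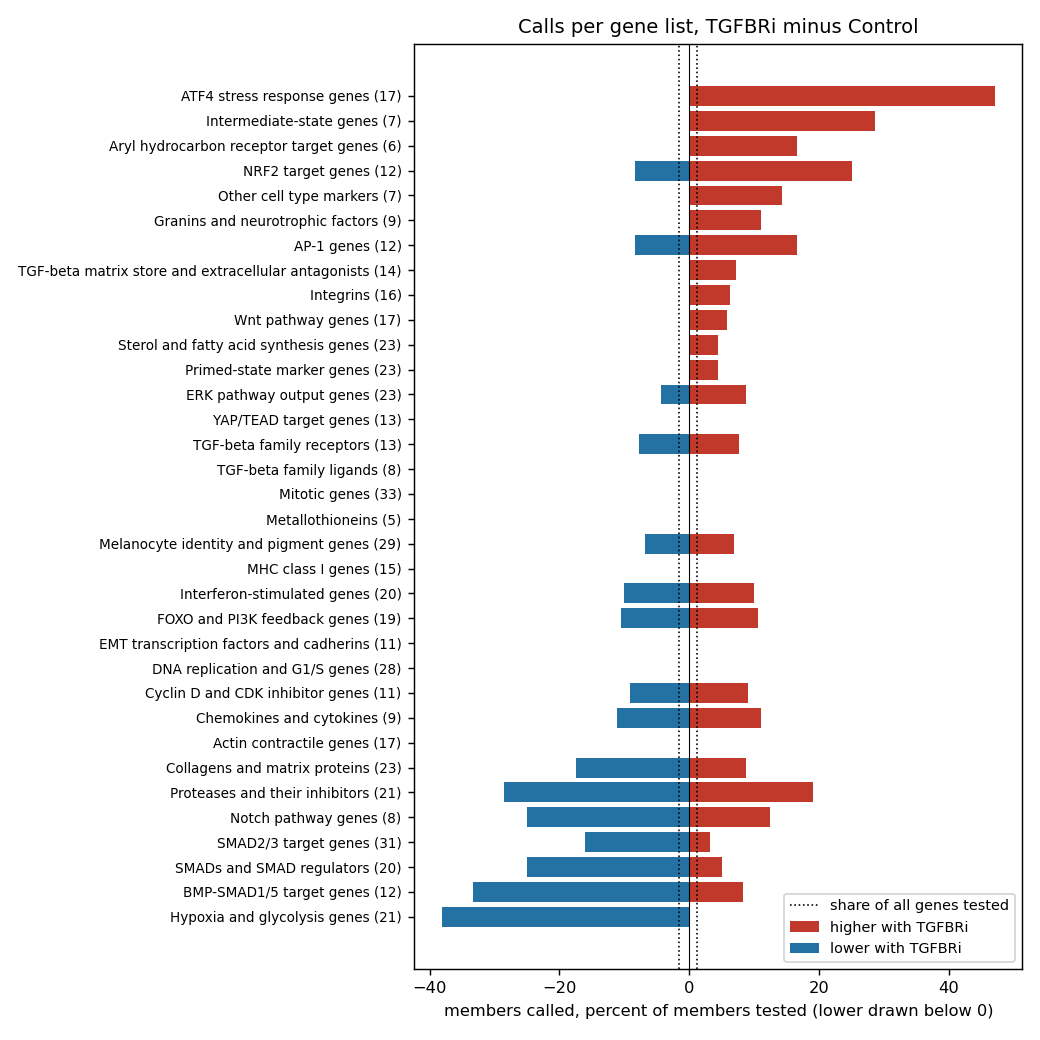
Share of the tested members of each of 34 gene lists that rose (red) or fell (blue, drawn below 0) with TGFBRi, with the number of tested members in brackets and dotted lines at the shares over all genes tested, 1.22% and 1.59%. The ATF4 list has the most risers, 8 of 17, and the hypoxia and glycolysis list has 8 of 21 fallers.

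Proteases and their inhibitors changed in both directions, 4 up and 6 down of 21 tested (median 0.15). PLAUR, the urokinase receptor, fell by 0.42 ± 0.08 (adjusted p = 0.00212, and 0.0608 without Control r2), from 14.5 and 18.2 CPM to 10.9 and 13.5 CPM. MMP8, a collagenase, fell by 0.59 ± 0.08 (adjusted p = 8.47e-05), from 10.8 and 17.0 CPM to 7.997 and 10.3 CPM. MMP14, a membrane-bound protease that activates others, fell by 0.36 (adjusted p = 0.00296, and 0.136 without Control r1), and TIMP3, an inhibitor of such proteases, by 0.37 (adjusted p = 0.00215, and 0.12 without Control r2). The cystatins CST1 and CST4 fell by 0.79 and 0.77 with overlapping ranges, and as near-identical paralogs they may share reads. SERPINF1, a secreted anti-angiogenic serpin, rose by 1.10 ± 0.18 from below 1 CPM (adjusted p = 0.000502, and 0.0744 without Control r1). CST1 and CST4 are the genes that lead cluster 9 and stood at 2.48 and 2.61 with PI3Ki.

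The remaining risers of the protease list were less stable. MMP15 passed at 0.0193, with adjusted p of 0.0591 and 0.121 without Control r1 and Control r2 and 0.257 at matched depth. MMP17 passed at 0.00397, with 0.304 without Control r2, 0.0567 without TGFBRi r2 and 0.0811 at matched depth. TIMP1 passed at 0.0404, with 0.152, 0.474 and 0.353 without Control r1, Control r2 and TGFBRi r2 and 0.494 at matched depth. CST4 had an adjusted p of 0.0105, and 0.249 at matched depth.

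Signalling outputs outside the SMAD pathway are counted by list, beside 2.81% of all genes tested that were called in either direction. Of 23 genes driven by ERK, 2 rose and 1 fell: EGR1, an immediate early factor, went from 19.1 and 21.1 CPM to 25.5 and 27.7 CPM (0.40, adjusted p = 0.00266, and 0.0608 without Control r2), CCND1 (cyclin D1) rose by 0.27, and MYC fell as above. CCND1 had an adjusted p of 0.0362, and 0.283, 0.479 and 0.204 without Control r1, Control r2 and TGFBRi r2 and 0.38 at matched depth. Of 12 AP-1 genes, FOSB and ATF3 rose and FOSL2 fell; FOSB went from 34.5 and 24.5 CPM to 44.4 and 36.3 CPM (0.47 ± 0.07, adjusted p = 0.000223). FOSL2 had an adjusted p of 0.0475, and 0.513 without Control r1 and 0.33 without TGFBRi r1. Of 19 FOXO and PI3K feedback genes, 2 rose and 2 fell. PIK3R3, a regulatory subunit of PI3K, fell by 0.62 ± 0.07 (adjusted p = 4.17e-06), from 176 and 170 CPM to 117 and 108 CPM, and its ranges were far apart.

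TXNIP and SESN3, both FOXO targets, rose by 0.33 and 0.30 (adjusted p = 0.0323 and 0.0152), and neither was stable. Without Control r1 the adjusted p was 0.696 and 0.443, SESN3 was lost without TGFBRi r1 as well (0.0516), and at matched depth TXNIP turned to −0.016 (adjusted p = 0.967) and SESN3 had an adjusted p of 0.217. Of 12 NRF2 targets 3 rose and 1 fell, and of 6 aryl hydrocarbon receptor targets 1 rose. NQO1, a quinone reductase in both lists, rose by 0.30 (adjusted p = 0.011, and 0.202 and 0.237 without Control r1 and Control r2), and ME1, malic enzyme, fell by 0.39 (adjusted p = 0.000788, and 0.0703 at matched depth). OSGIN1 passed at 0.0275, with 0.114, 0.361 and 0.195 without Control r1, Control r2 and TGFBRi r2 and 0.0516 at matched depth. Of 8 Notch pathway genes, NOTCH2 and the target HES1 fell by 0.30 and 0.31 and NOTCH1 rose by 0.49. The adjusted p was 0.192 for NOTCH2 and 0.0972 for HES1 without Control r1, 0.0606 and 0.127 without Control r2, and for NOTCH1 0.303 without Control r1, 0.0701 without TGFBRi r2 and 0.144 at matched depth.

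Calls in immune and metabolic lists are likewise given beside 2.81% of all genes tested. Of 20 interferon-stimulated genes, IFITM2 and IFITM3 rose (0.72 and 0.36) and OAS1 and OASL fell (−0.36 and −1.25). None of these 4 passed at matched depth (adjusted p = 0.062, 0.227, 0.738 and 0.482), and without Control r2 they had adjusted p of 0.117, 0.152, 0.158 and 0.826. Without TGFBRi r2 the values were 0.107, 0.135, 0.0625 and 0.663, and for OAS1 also 0.276 and 0.0761 without Control r1 and TGFBRi r1. Of 9 chemokines and cytokines, IL24 rose and LIF fell, both at low level. IL24 had an adjusted p of 0.155, 0.162 and 0.124 without Control r1, Control r2 and TGFBRi r1 and 0.503 at matched depth, and LIF 0.424 and 0.185 without Control r2 and TGFBRi r2 and 0.381 at matched depth. Of 23 sterol and fatty acid synthesis genes, HMGCS1 rose by 0.34 (adjusted p = 0.016, and 0.0681, 0.135 and 0.194 without Control r1, Control r2 and TGFBRi r1).

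Among 17 Wnt pathway genes SFRP1 was the one that rose, as were ITGB8 among 16 integrins, VGF among 9 granins and neurotrophic factors and CD68 among the 7 tested markers of other cell types. Of all genes tested, 1.22% rose. CD68 went from 33.1 and 36.9 CPM to 38.7 and 44.8 CPM (0.25, adjusted p = 0.0462, and 0.231, 0.435 and 0.146 without Control r1, Control r2 and TGFBRi r2 and 0.168 at matched depth). Among 11 cyclin D and CDK inhibitor genes CCND1 rose and CDKN1C fell. CDKN1C was under 1.1 CPM, with an adjusted p of 0.0436 that reached 0.0786, 0.123, 0.0735 and 0.109 without Control r1, Control r2, TGFBRi r1 and TGFBRi r2 and 0.511 at matched depth. In edgeR 0 members passed among 11 mesenchymal transcription factors and cadherins, 17 actin contractile genes, 13 YAP/TEAD targets, 15 MHC class I genes, 5 metallothioneins, 28 DNA replication and G1/S genes and 33 mitotic genes. In these lists 4, 5, 2, 4, 1, 4 and 4 members had an unadjusted p under 0.05, and DESeq2 called 1 actin gene and 0 in the others. The replication genes ranged from −0.15 to 0.19 in log2 fold change and the mitotic genes from −0.15 to 0.22.

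Cell cycle phase was taken as the authors called it from expression scores. Of drug-susceptible cells, 33.4% and 31.3% were in G1 in Control and 30.6% and 30.8% in TGFBRi. S phase held 37.2% and 38.5% against 40.1% and 37.7%, and G2M held 29.4% and 30.2% against 29.2% and 31.6%. In cells of at least 10000 UMIs the difference was larger, with 32.9% and 31.4% of Control cells and 29.1% and 27.3% of TGFBRi cells in G1 (a mean difference of −3.95 percentage points, against −1.66 in all cells) and a mean difference of 2.90 in S phase (1.08 in all cells), without overlap in either phase. With 2 libraries a side the exact two-sided permutation test cannot give a p below 0.33, and p was 0.33 to 1 over clusters and phases. The mean of the authors' per-cell score for primed genes stood at 0.379 and 0.381 in Control and 0.377 and 0.378 in TGFBRi.

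The mix of Louvain clusters moved more than the phases, but in every cluster described here other than cluster 7 at least 1 of the 8 leading genes passed the test between the treatments, so that a share and a change in those genes cannot be told apart. Cluster 2 (VGF, APOD) held 6.83% and 13.7% of drug-susceptible cells in Control and 12.8% and 22.1% in TGFBRi, and cluster 8 (VGF, histone genes) 3.82% and 6.01% against 7.42% and 12.2%. Cluster 3 (FN1, PMEPA1, THBS1) held 1.38% and 1.67% in Control and 0.16% and 0.13% in TGFBRi, which are 56 and 59 against 8 and 8 cells. Cluster 6 (ID3, ID2, ID1) held 3.18% and 1.11% against 1.02% and 0.68%, and cluster 9 (CST1, PRR9, CST4) 1.63% and 6.21% against 0.37% and 1.90%.

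Cluster 0 (CDCA7, MSH6, with MYC and PCDH7 further down its leading genes) held 44.3% and 33.3% in Control and 42.4% and 29.5% in TGFBRi, and cluster 1 (histone genes) 21.4% and 19.5% against 20.4% and 15.3%. Cluster 5 (CCNB1, CDC20, with EGR1, which rose) held 10.7% and 12.1% in Control and 9.12% and 9.38% in TGFBRi, a mean difference of −2.19 percentage points that was −3.25 in cells of at least 10000 UMIs, and cluster 7 (UBE2C, PLK1) held 6.26% and 5.64% against 5.97% and 7.45%. Clusters 11 and 12, the second led by interferon-induced genes that include OASL, which fell, stayed below 0.8% in all 4 libraries. Without cluster 3, 210 genes rose and 257 fell, and after drawing the same number of cells from each cluster in each library 216 rose and 262 fell. The share of all cells labelled primed was 2.26% and 4.47% in Control and 2.26% and 4.32% in TGFBRi.

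**Figure D5:**
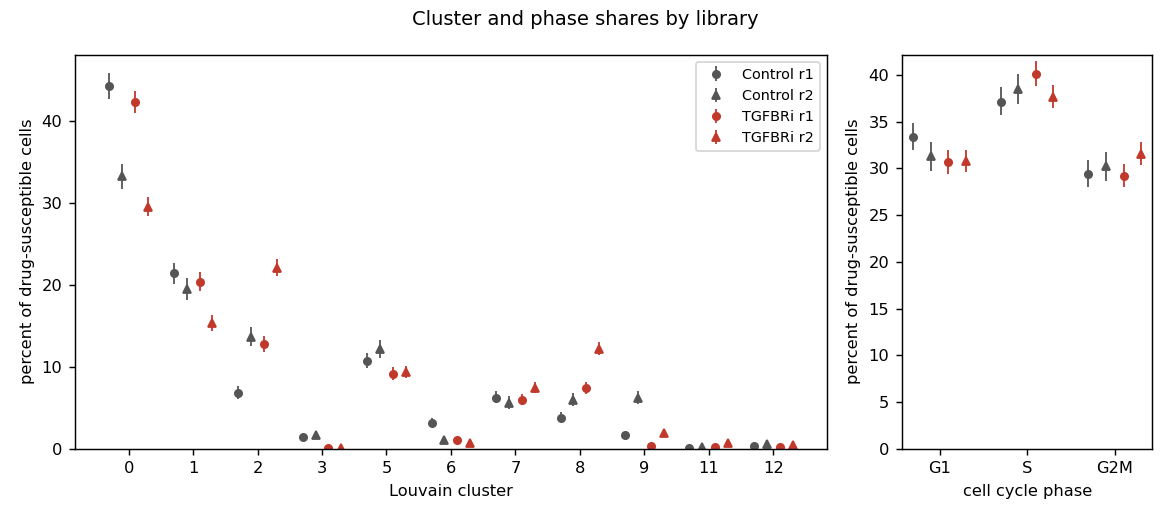
Share of drug-susceptible cells in each Louvain cluster (left) and cell cycle phase (right), in percent, by library (grey Control, red TGFBRi; circles r1, triangles r2), with exact 95% binomial intervals that cover counting error only. Clusters 2 and 8 are higher and clusters 3 and 9 lower with TGFBRi within each replicate, and G1 is lower with TGFBRi within each replicate.

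The change in drug-susceptible cells could also be set against that in the primed cells of the same libraries, which were few (94 and 165 in Control, 118 and 271 in TGFBRi). A test of the difference between the cell states called 42 of 17290 genes (0.243%), with 10 changes higher and 32 lower in primed cells, and 1123 genes had an unadjusted p under 0.05. Without the replicate term it called 6. The primed and drug-susceptible sums of a library entered as separate samples, with a replicate term shared by both states and no term for the library. The spread in this fit was in effect shared by all genes. Its p-values therefore do not measure how well the replicates of a given gene agreed. A change in expression and a change in which cells carry the primed label cannot be told apart in this test. ID3, ID1 and COL9A3 fell by 3.02, 2.27 and 1.98 in drug-susceptible cells and stood at −1.87, −0.72 and −0.66 in primed cells, and the differences of 1.15, 1.55 and 1.31 passed (adjusted p = 0.0106, 0.000174 and 3.91e-10). The matrix and secreted genes SPP1, MGP and IGFBP7 did not pass in drug-susceptible cells (0.16, −0.09 and −0.22, adjusted p = 0.734, 0.843 and 0.584) and had log2 fold changes of −1.32, −1.33 and −1.41 in primed cells. SPP1 (osteopontin) read 144 and 188 CPM in primed Control cells and 59.3 and 73.6 CPM in primed TGFBRi cells, against 3.27 to 4.50 CPM in drug-susceptible cells of the same fit. IGFBP7 read 193 and 374 CPM in primed Control cells and 91.8 and 122 CPM in primed TGFBRi cells. The value of MGP came from r2, where it read 277 CPM in primed Control cells and 58.8 CPM in primed TGFBRi cells, while in r1 it read 102.8 CPM in both. IGFBP7 passed in drug-susceptible cells at matched depth (−0.87, adjusted p = 0.0107), and its log2 fold change was −0.49 without Control r1. It is among the leading genes of cluster 3, whose median depth in TGFBRi lay below the matched window. Within the 6 clusters measured, its mean log2 ratio ranged from −0.17 to 0.55 and was below 0 in 4. Whether the mix of cells shaped the value at matched depth was not tested.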

How the data were processed

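Single-cell RNA libraries were made with a droplet 3′ kit, and the authors aligned and counted them with Cell Ranger on hg38 (version not given in the sources used here), filtered and clustered cells in Seurat, and deposited UMI counts per gene and cell with labels of treatment, replicate, cluster, phase and cell state. The deposited counts hold 36601 genes, and the authors computed the percent of mitochondrial UMIs per cell and filtered on it. Cells were taken as the authors had filtered them, and no doublet caller was run. Of the deposited cell labels, 11 columns were not used. The authors' phase scores and primed score of each cell, as deposited, were averaged per library. For the open-chromatin libraries, the authors deposited peaks with a fold enrichment over background per peak, a ratio of signal, and their processing notes name Bowtie2 2.3.4.1, SAMtools 1.1 and MACS2 2.1.1.20160309. The deposited peak files also give −log10 of the q-value by MACS2, over which no further threshold was set. Peaks were called per library and compared with promoters on hg38 by any overlap.

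Here, UMIs were summed per library over drug-susceptible cells. edgeR 4.0.16 (R 4.3.3) fitted quasi-likelihood models to 8 libraries of the treatment experiment with treatment and replicate, TMM scaling (factors 0.943 to 1.05), edgeR's filter on low counts and Benjamini-Hochberg adjustment at 0.05. The fit to drug-susceptible cells had 3 residual and 19.7 prior degrees of freedom. These are not the degrees of freedom of the test between cell states, which was a separate fit. The p-values of that test follow a normal distribution of the change over its SE. A gene's own spread between replicates therefore hardly entered them. CPM of the sums use the scaled totals, and CPM of primed cells use the scaling of the fit of both states. Marker checks, levels within clusters and phases, and the first experiment use unscaled totals. Ratios within subsets add 0.1 CPM, and shares carry exact 95% binomial intervals for counting error only. The replicate term was planned. As a description of the pairing, the differences r2 minus r1 correlated over genes at 0.293 to 0.546 between treatments, lowest for TGFBRi with Control. Per the study's methods, 2 samples were grown, split over the treatments and treated in parallel as replicates, from 1 clone of the line. The replicate term removes differences between these parallel cultures that all treatments share. The p-values measure the spread that remains, estimated over all 8 libraries and with information shared over genes. The test on simulated data with 17914 genes recovered 58% of 100 genes changed by 0.5 and 82% of 100 changed by 1 on the log2 scale for TGFBRi minus Control, with 4 false calls. The simulated counts used the spread estimated by the fit itself and a replicate shift equal in all treatments. The simulation therefore does not cover replicate shifts that differ between treatments. Named genes were the 12 largest rises and 12 largest falls at a mean of at least 10 CPM, up to 4 members of each of 34 lists by p, TGFBR1 and TGFBR2, and a few of the genes the study names (SOX10, MITF, EGFR, AXL, NGFR, NT5E, FN1, SERPINE2, NFATC2, MGP and 1 not reported here). Any further list members named because they passed, and SPP1, HTRA1 and IGFBP7, were chosen after their values were seen. The members and lists were chosen with earlier results of these data known. DESeq2 1.42.0, other scaling, filters, subsets of cells and leaving out each library were run as alternatives.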

Additional observations from a re-analysis of the deposited data

Results flagged for a closer look

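In edgeR with the replicate term, the test of the difference between primed and drug-susceptible cells called 42 genes for the receptor inhibitor. The differences below are the log2 fold change in primed cells minus that in drug-susceptible cells, and the primed sums rest on 94 to 271 cells a library. Falls seen in drug-susceptible cells were smaller in primed cells for ID1 (1.55), COL9A3 (1.31) and ID3 (1.15). For genes that rose in drug-susceptible cells, the change in primed cells lay lower for BGN (−1.53), SLC7A11 (−1.34), TRIB3 (−0.96), ATF3 (−2.06), DDIT3 (−1.13) and S100A4 (−0.57). Of genes that did not pass in drug-susceptible cells, the matrix protein MGP differed by −1.23, the secreted phosphoprotein SPP1 by −1.47, the serine protease HTRA1 by −1.56 and the growth factor binding protein IGFBP7 by −1.19. For 3 of the stress genes the primed Control libraries were far apart and the replicates differed. DDIT3 read 210 and 47.5 CPM in primed Control cells and 42.2 and 78.4 CPM in primed TGFBRi cells, TRIB3 92.9 and 41.1 CPM against 34.3 and 49.8 CPM, and SLC7A11 44.7 and 16.6 CPM against 17.1 and 15.8 CPM, so that these values were lower with TGFBRi in r1 and higher or nearly level in r2. MGP read 102.8 and 277 CPM in primed Control cells and 102.8 and 58.8 CPM in primed TGFBRi cells, a change seen in r2 alone. DDIT3 and MGP still passed this test (adjusted p = 5.15e-08 and 3.92e-10), so that a small p there does not mean that replicates agreed.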

How the results depend on the processing

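Fits without the replicate block called 15 genes higher and 32 lower and left 2 SMAD regulators, 2 SMAD2/3 targets, 1 ATF4 gene and 1 hypoxia gene, and the test between primed and drug-susceptible cells then called 6 genes. DESeq2 called 129 genes higher. G1 cells alone gave 86 higher and 124 lower, with 3 SMAD regulators, 2 SMAD2/3 targets, 5 ATF4 and 5 hypoxia genes, S cells gave 3 SMAD regulators, and G2M cells gave 111 higher and 152 lower with 3 SMAD regulators and 3 ATF4 genes. Matched depth, chosen after seeing the data, gave 505 higher and 4 ATF4 genes, and turned DDIT3 (−0.048) and TXNIP (−0.016). Leaving out 1 library moved the counts to between 81 and 614 higher and 125 and 633 lower, with 3 to 4 BMP targets, 2 to 5 SMAD regulators, 3 to 5 SMAD2/3 targets, 4 to 7 ATF4 genes and 3 to 9 hypoxia genes. The lowest counts of genes were without Control r2 and the highest without TGFBRi r1. In cells of at least 10000 UMIs the difference of shares was −3.25 percentage points for cluster 5, −3.95 for G1 and 2.90 for S. Cluster 0 went from −2.82 to −4.77 there, cluster 1 from −2.57 to −1.27 and cluster 7 from 0.76 to 1.54. The libraries of cluster 7 overlapped in all cells and did not overlap in these deeper cells. In G1 cells the S and G2M scores differed by 0.0297 and 0.0416. With AGAC in place of CAGACA, 83.0% and 81.1% of promoter windows of higher and lower genes held the motif. The causes of these changes were not tested beyond the smaller numbers of cells or libraries. DDIT3 and TXNIP were the named called genes that reversed in any of the 17 alternatives. RLE scaling called 209 and 295, and 93 of 94 named genes kept their call. With 2 libraries a side, the precision is set by the replicate term and by information shared over genes.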
